A study of Mus musculus with 11 samples.

Results

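The deposited table assigns each non-coding feature to a chromosomal domain and lists the changed mRNAs of that domain. In 245 of its 2920 domains both lists are filled, with at least 1 mRNA higher and at least 1 lower without the transcription factor Nrl. The members described here are the 5005 non-coding features of those domains, of 36097 features in all. They were chosen by 1 rule, that a feature stands on a single line of the table and that both mRNA lists of its domain are filled. The rule uses no read count of the features. The 245 domains list 494 mRNAs as higher and 355 as lower, none of them in both lists. In 97 domains a single mRNA stands on each side, in 101 the higher list is longer, in 107 the lists are equally long and in 37 the lower list is longer. The sources used here give no account of how the domains and the mRNA lists were made. The direction of the lists was read from their content, since Nrl stands in the lower lists and Opn1sw in the higher ones. Of the 245, 8 are named as stretches between domains and hold 44 features.

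The libraries were made from mouse retina at postnatal day 21, from RNA depleted of polyadenylated transcripts. They comprise 6 libraries labelled Nrl knock-out and 5 labelled wild-type. The labels give neither the allele of the knockout, nor the strain, nor the animals behind the libraries, so p-values measure the spread between libraries, which may in part be technical. Each library was read with single-end, stranded reads of 50 bp.

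Nrl is a leucine zipper transcription factor that commits photoreceptor precursors to the rod fate. Without it, the cells that would become rods take on cone-like features, so rod genes are lost and short-wavelength cone genes gained. A topological domain is a stretch of chromosome whose parts touch one another more often than they touch the neighbouring stretches, and genes within it can share enhancers. Non-coding RNAs without a poly(A) tail include enhancer RNAs, antisense RNAs and divergent transcripts of promoters, and they often accompany transcription of the gene beside them. In whole retina, fewer cells of a type and less RNA per cell cannot be told apart.

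Promoter windows of 300 bases, 250 before and 50 after a gene's start, were available for 380 of 492 genes listed as higher and 276 of 354 listed as lower (RefSeq sequences, build GRCm38.p6). A called feature reached into 3 of these windows, each time from the upstream edge and on the strand opposite to the gene. They are shown because a changed non-coding feature enters the promoter of a listed mRNA there. All 3 genes lie on the minus strand, and capitals mark the bases inside the feature.
Btg2 (higher, chr1:134079106-134079405): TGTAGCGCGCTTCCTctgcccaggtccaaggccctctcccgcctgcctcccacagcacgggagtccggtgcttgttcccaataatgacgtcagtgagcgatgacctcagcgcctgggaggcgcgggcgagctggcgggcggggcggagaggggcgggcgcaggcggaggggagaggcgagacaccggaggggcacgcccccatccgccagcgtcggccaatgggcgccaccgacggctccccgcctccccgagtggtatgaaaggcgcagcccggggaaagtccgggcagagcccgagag
Ticam1 (higher, chr17:56276718-56277017): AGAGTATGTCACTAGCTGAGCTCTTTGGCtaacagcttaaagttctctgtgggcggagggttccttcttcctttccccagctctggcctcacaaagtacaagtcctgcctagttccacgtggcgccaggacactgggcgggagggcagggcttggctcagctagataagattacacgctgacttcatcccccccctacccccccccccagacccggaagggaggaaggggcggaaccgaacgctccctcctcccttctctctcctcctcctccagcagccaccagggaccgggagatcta
Sec14l2 (lower, chr11:4118680-4118979): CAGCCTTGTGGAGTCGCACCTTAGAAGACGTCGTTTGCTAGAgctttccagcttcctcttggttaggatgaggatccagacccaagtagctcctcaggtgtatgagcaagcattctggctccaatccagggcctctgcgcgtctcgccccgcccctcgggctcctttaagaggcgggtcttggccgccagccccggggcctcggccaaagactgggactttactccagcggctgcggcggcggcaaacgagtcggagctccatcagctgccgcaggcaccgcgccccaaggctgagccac

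Btg2 encodes an antiproliferative protein, Ticam1 an adaptor of Toll-like receptor signalling and Sec14l2 a lipid-binding protein. MSTRG.4666 shares 15 bases with the Btg2 window. It had between 41.7 and 70.7 normalised counts in the 6 knockout libraries, with a median of 49.9, against 16.5, 22.6, 13, 9.67 and 12.1 in the wild-type libraries. All knockout libraries were above all wild-type libraries, at a log2 difference of 1.83 ± 0.24 (SE; limma, adjusted p = 7.53e-07). MSTRG.39834, with 29 bases in the Ticam1 window, ranged between 21.5 and 51.5 in knockout with a median of 37.1, against 16.5, 8.47, 10.2, 15.5 and 13.1 in wild-type. That feature also lies opposite to Plin3, another gene listed as higher. Its groups did not overlap either, at a log2 difference of 1.40 ± 0.28 (SE; limma, adjusted p = 0.000247). MSTRG.12036, with 42 bases in the Sec14l2 window, was the low one of the 3, with 0.976 to 6.72 in knockout and a median of 3.22, against 21.9, 12.2, 13.9, 22.2 and 8.07 in wild-type. No knockout library reached a wild-type one (log2 difference -1.88 ± 0.38, SE; limma, adjusted p = 0.00027). The start of Sec14l2 used for distances, the outer end of the annotated gene, lies 4.30 kb from the middle of this feature and is not the start of this window. Each of the 3 features thus differed in the direction of the mRNA whose promoter window it enters. Only called features were searched for, so tested but uncalled features that reach a window were not counted.

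Neither of the searched motifs was found in these 3 windows on either strand. The homeobox-type motif TAATCC was in 4.74% of the windows of mRNAs listed as higher, 4.71% of those listed as lower and 7.17% of all 27025 windows. For the leucine zipper half-site TGCTGA the shares were 16.8%, 17.4% and 19.2%. Neither motif contains the other, and a match or its absence describes these letters in these windows only.

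The features of the table held 3374221 to 4876429 reads per knockout library and 3238184 to 4150460 per wild-type library, of which the 10 most abundant features took 33.9% to 53.5% and 34.8% to 46.4%. The members held 5.41% to 7% of the normalised counts of a knockout library and 7.24% to 9.05% of those of a wild-type library. A count of 0 reads allows up to 3, which is 2.28 to 3.12 normalised counts in knockout and 2.78 to 4.11 in wild-type, and this covers counting error only. Across tested features, libraries correlated at 0.890 to 0.941 within knockout, 0.880 to 0.941 within wild-type and 0.672 to 0.745 between the groups.

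As a group, the members moved in both directions in nearly equal numbers. Of the 5005 members, 3002 had a mean of at least 5 normalised counts and were tested with limma on log2(normalised count + 1), and 2003 were below it. At an adjusted p below 0.05, 502 were higher in the knockout and 436 lower, while 2064 were not called. The called share was 31.2% of tested members, against 28.1% of all 21395 tested features. The higher calls made up 16.7% of members, against 15.6% of all tested features, and the lower calls 14.5%, against 12.6%. The median log2 difference was 0.02 over tested members and -0.02 over all tested features. Of the 938 called members, 686 (73.1%) had groups that did not overlap. The same share was not counted over all called features, so it cannot be read as particular to these domains. In the authors' deposited table, 569 members were higher and 490 lower at its own adjusted p below 0.05, and 862 of the 938 calls made here were among them.

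A difference of at least 2-fold on the log2 scale was seen for 400 higher and 359 lower called members, and one of at least 16-fold for 20 higher and 66 lower ones. These counts were not made over all tested features, so the larger number of strong falls cannot be read as particular to these domains. Domains with a single kind of list had more calls on that side. In domains listing only lower mRNAs, 270 features were higher and 765 lower of 2983 tested, and in domains listing only higher mRNAs 1615 were higher and 431 lower of 5411. Domains listing no mRNA had 929 higher and 1057 lower features among 9938.

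Within single domains, called features of both directions were present, at any distance from each other, in 88 of the 239 domains that had a tested feature. The called features were all higher in 58 domains and all lower in 60, and 33 domains had none. Of the 171 domains with at least 2 called features, 51.5% held both directions. The same share was 39.2% of 194 domains listing only lower mRNAs, 35.3% of 323 listing only higher mRNAs and 34.5% of 359 listing none. It depends on how many features are called. With 2 to 4 called features, 37 of 89 domains (41.6%) held both directions, against 25%, 26.4% and 25.5% in domains listing only lower mRNAs, only higher mRNAs and none. With 5 to 9, 36 of 65 did so (55.4%, against 61.1%, 40.9% and 54.1%), and with 10 or more 15 of 17 (88.2%, against 65%, 58.3% and 55.6%). These shares count domains of 1 set of libraries and were not tested against each other. Where called features of one direction within 10 kb were joined, 309 higher and 306 lower stretches remained in place of the 502 and 436 features.

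**Figure D1:**
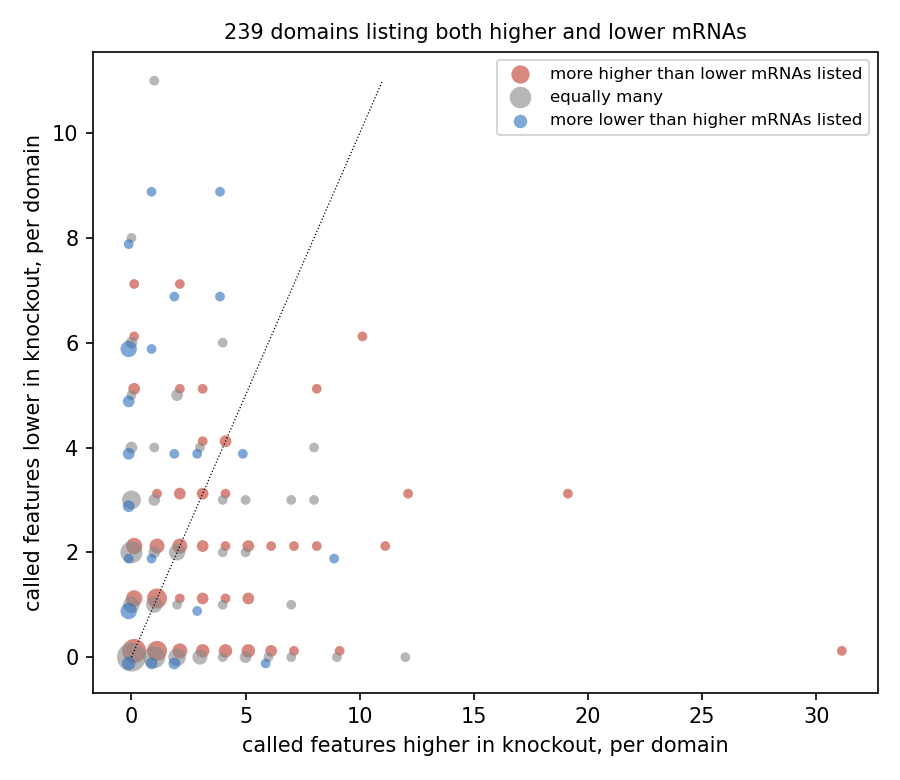
Number of called features per domain that were higher in the knockout (x axis) and lower in the knockout (y axis), for the 239 domains with a tested feature; dot area grows with the number of domains at a position, colours give the balance of the listed mRNAs and are shifted slightly apart, and the dotted line marks equal numbers. The domains along the axes are the 58 with only higher and the 60 with only lower called features, and TAD_711 lies farthest out, with 31 higher and 0 lower.

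Sums over all features of a domain were tested for 242 of the 245 domains with limma over 2745 domains, of which 39.6% were called in either direction. Among the 242, 54 were higher (22.3%, against 18.8% of all domains tested) and 69 lower (28.5%, against 20.8%). Of the 88 domains with called features in both directions, 18 had a higher sum, 26 a lower sum and 44 a sum that was not called. The 58 domains with only higher calls had 34 higher sums and 0 lower ones. The 60 with only lower calls had 0 higher sums and 41 lower ones.

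Along the chromosome, 49 of the 88 domains changed direction a single time from one end to the other. A further 24 changed direction 2 times and 15 changed it 3 or more times. At least 2 called features in each direction were present in 51 domains, and in 19 of these a single switch separated a higher from a lower stretch.

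TAD_717 on chromosome 4 changed direction 3 times. Its lists hold Kif1b, a kinesin that carries mitochondria and synaptic vesicle precursors, as lower, and Gpr157, H6pd and Spsb1, among them the hexose-6-phosphate dehydrogenase of the endoplasmic reticulum, as higher. Of 29 tested features over 892 kb, 10 were higher and 6 lower. The strongest fall was MSTRG.65404 (chr4:149347827-149367720, plus strand), which lies opposite to Ube4b and along Ube4bos1. It had 21.2 to 32.4 normalised counts in knockout, with a median of 27.1, against 2137, 1535, 1603, 1464 and 1349 in wild-type. No wild-type library came near a knockout one, at a log2 difference of -5.85 ± 0.18 (SE; limma, adjusted p = 6e-19). The strongest rise, MSTRG.65453, lies 136 kb from the start of Spsb1. It had 9.86 to 24.0 in knockout, with a median of 15.7, against 2.74, 2.82, 0, 0 and 2.02 in wild-type, where each library was at or under the level that 3 reads give. Its log2 difference was 2.96 ± 0.42 (SE; limma, adjusted p = 2.68e-06). All lowered features but 1 lay together near Kif1b, and the raised ones lay beyond them. The sum of the domain was 4328 ± 831 in knockout and 6369 ± 1238 in wild-type (SD, n = 6 and 5), a log2 difference of -0.56 ± 0.16 (SE; limma, adjusted p = 0.00794).

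TAD_2015 on chromosome 14 held the widest opposition among the named domains. It lists Mmrn2, an endothelial extracellular matrix protein, as higher, and Opn4, the melanopsin of light-sensitive ganglion cells, and Ldb3, a muscle Z-disc protein, as lower. Of 17 tested features, 4 were higher and 9 lower. MSTRG.27654 (chr14:34661330-34665638, plus strand, along the non-coding gene Gm49024) had 0 to 5.2 normalised counts in knockout, with a median of 2.25, against 1323, 1204, 894, 899.6 and 708 in wild-type. The knockout libraries were close to the level of 3 reads, while the wild-type libraries were all above it by far. Its log2 difference of -8.44 ± 0.32 (SE; limma, adjusted p = 5.75e-17) was matched by MSTRG.27653 on the other strand of the same gene, at -7.98 ± 0.22 (SE; limma, adjusted p = 1e-19). The 2 features overlap, and the sources used here leave unstated whether reads were counted by strand.

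Less than 100 kb farther along, MSTRG.27663 (chr14:34759237-34770537, plus strand, along A930038B10Rik) went the other way. It had 877 to 1754 normalised counts in knockout, with a median of 1489, against 56.2, 41.4, 29.7, 31.0 and 35.3 in wild-type. Every knockout library was above every wild-type library, at a log2 difference of 5.18 ± 0.19 (SE; limma, adjusted p = 3.3e-17). The nearest listed start is that of Opn4 at 165 kb, a lower mRNA, so this rise stood against it. Its neighbours MSTRG.27662 and MSTRG.27664, opposite to the same gene, were also higher, by 4.23 and 3.59 on the log2 scale. A gap of 66.1 kb parted these 3 from the last lowered feature. The sum of the domain averaged 2063 ± 394 in knockout and 4099 ± 979 in wild-type (SD, n = 6 and 5; log2 difference -0.98 ± 0.17, SE; limma, adjusted p = 0.000159).

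In TAD_2397 on chromosome 17, with Plekhh2 listed as higher and Lrpprc, a regulator of mitochondrial mRNA, as lower, 8 of 20 tested features were higher and 4 lower. MSTRG.40716, 106 kb from Lrpprc, had 19.0 to 40.3 normalised counts in knockout, with a median of 27.3, against 224, 226, 137, 135 and 77.7 in wild-type. MSTRG.40742, which lies opposite to Camkmt and 557 kb from Lrpprc, had 15.6 to 50.6 in knockout, with a median of 24.2, against 9.60, 4.70, 1.86, 0.967 and 2.02 in wild-type. Neither pair of groups overlapped, and the log2 differences were -2.42 ± 0.26 and 2.73 ± 0.40 (SE; limma, adjusted p = 2.55e-08 and 3.29e-06). MSTRG.40742 stood 419.4 kb beyond the last lowered feature. The sum of the domain did not pass the test, with 818 ± 137 in knockout and 1028 ± 289.7 in wild-type (SD, n = 6 and 5; limma, adjusted p = 0.185).

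TAD_1054 on chromosome 7 lists C5ar1, the receptor of complement fragment C5a, and Psg16 as higher, and the nucleolar gene Gltscr2 as lower. Its 40 tested features included 8 higher and 5 lower ones. MSTRG.77996, 35.9 kb from Gltscr2, had 279 to 577 normalised counts in knockout, with a median of 409, against 1942, 1584, 1244, 1459.6 and 1390.0 in wild-type. MSTRG.78068, 36.2 kb from C5ar1, had 34.1 to 49.0 in knockout, with a median of 41.4, against 13.7, 11.3, 9.28, 12.6 and 7.06 in wild-type. Each of the pair moved with the mRNA nearest to it, by -1.90 ± 0.17 and 1.90 ± 0.24 on the log2 scale (SE; limma, adjusted p = 1.19e-09 and 3.26e-07), with no overlap between the groups.

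**Figure D2:**
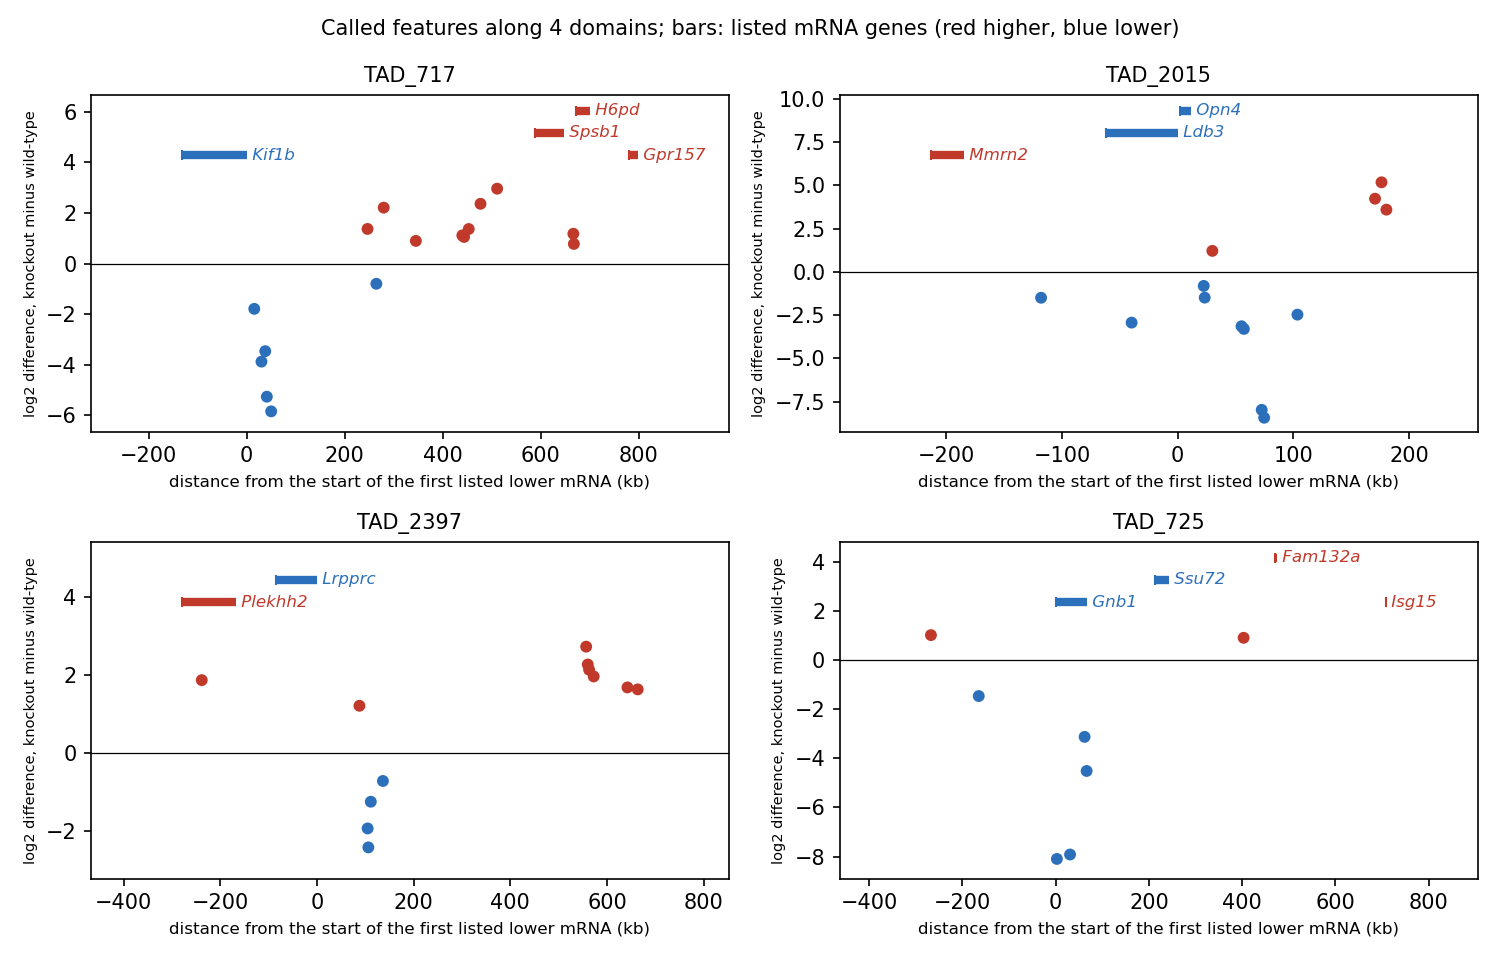
Log2 difference of each called feature, knockout minus wild-type, against its distance from the start of the first listed lower mRNA in kb, in TAD_717, TAD_2015, TAD_2397 and TAD_725. Red dots are higher and blue dots lower in the knockout, and bars mark the listed mRNA genes in the same colours. In TAD_717 most of the 6 lowered features lie close to Kif1b, and in TAD_2015 the 3 strongest rises lie at the far end from Mmrn2.

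Other domains had called features of 1 direction only, although their lists point both ways. They were named for that trait, and part of their tested features were not called. TAD_711 on chromosome 4 had the most features, 108, and of its 54 tested features 31 were higher and 0 lower. It lists Kazn, a desmosome-associated protein, and Tmem51 as higher and Fhad1 as lower. Its sum had 4864 to 7130.0 normalised counts in knockout, with a median of 5442, against 3152, 2909, 2281, 2835 and 2859 in wild-type. The groups did not overlap (log2 difference 1.01 ± 0.12, SE; limma, adjusted p = 2.45e-06). The strongest single rise there, MSTRG.65040, was from a low level, with 6.24 to 20.5 in knockout and a median of 10, against 0, 5.65, 2.78, 0.967 and 2.02 in wild-type (log2 difference 2.12 ± 0.45, SE; limma, adjusted p = 0.000543).

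In TAD_129 on chromosome 1, which lists Btg2 as higher and Optc, a leucine-rich repeat protein of the vitreous, as lower, 12 of 14 tested features were higher and 0 lower. They include the promoter feature MSTRG.4666 given above. The strongest was MSTRG.4678, 21.0 kb from Btg2, with 105 to 259 normalised counts in knockout and a median of 163, against 32.9, 21.6, 22.3, 17.4 and 10.1 in wild-type. Its groups lay apart, at a log2 difference of 3.01 ± 0.26 (SE; limma, adjusted p = 3.29e-10). TAD_1400 on chromosome 9 lists Elovl5, a fatty acid elongase, as higher and the ciliary kinase gene Ick as lower, and 9 of its 11 tested features were higher and 0 lower. There MSTRG.92621 had 14.4 to 55.1 in knockout, with a median of 19.2, and was listed at 0 in 4 wild-type libraries and at 1.01, a single read, in the fifth. The sum of that domain was 1368 ± 340.2 in knockout and 277 ± 23.0 in wild-type (SD, n = 6 and 5; log2 difference 2.27 ± 0.15, SE; limma, adjusted p = 1.48e-09).

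The named domains with several calls, all of them lower, had fewer called features than TAD_711, TAD_129 and TAD_1400. TAD_1476 on chromosome 10, with E030030I06Rik listed as higher and the kinase gene Sgk1 as lower, had 0 higher and 8 lower features among 10 tested. Its sum had 126 to 218 normalised counts in knockout, with a median of 145, against 1542, 1466, 1079, 1168 and 982 in wild-type. This was a log2 difference of -2.99 ± 0.16 (SE; limma, adjusted p = 8.44e-11), with the groups far apart. Its feature MSTRG.7980 averaged 6.52 ± 4.13 in knockout and 118 ± 37.8 in wild-type (SD, n = 6 and 5; log2 difference -4.09).

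TAD_1535, also on chromosome 10, lists Icosl, a ligand of T cell costimulation, as higher and Agpat3, Aire and Pfkl, the liver-type phosphofructokinase, as lower. Of its 9 tested features, 0 were higher and 8 lower. MSTRG.9705, in an intron of Agpat3 on the opposite strand, had 0 to 1.95 normalised counts in knockout, with a median of 1.33, against 54.9, 52.7, 33.4, 37.7 and 23.2 in wild-type. All knockout values were under the level of 3 reads.

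In 2 of the named domains with several calls, all of them lower, the lists hold more higher than lower mRNAs. TAD_866 on chromosome 5 lists Actl6b, Gnb2, Pcolce and Tsc22d4 as higher and Zan, the sperm protein zonadhesin, as lower, and had 0 higher and 7 lower features among 10 tested. All 7 have Zan as the nearest listed mRNA. MSTRG.71255 (chr5:137400570-137431541, plus strand, opposite to Zan) had 31.2 to 83.2 normalised counts in knockout, with a median of 44.0, against 1352, 899.6, 999, 999 and 1021 in wild-type. The groups lay far apart, at a log2 difference of -4.52 ± 0.21 (SE; limma, adjusted p = 2.06e-15). TAD_1074 on chromosome 7 lists Tmem86a and Tph1, a tryptophan hydroxylase, as higher and the phosphatase gene Ptpn5 as lower, with 0 higher and 6 lower features among 12. The 6 lowered features have Tph1 or Tmem86a as the nearest listed mRNA and moved against it. Its sum averaged 542 ± 106 in knockout and 3092 ± 456 in wild-type (SD, n = 6 and 5; log2 difference -2.52 ± 0.14, SE; limma, adjusted p = 2.31e-10). MSTRG.79866 there, opposite to Tsg101 and 136 kb from Tmem86a, averaged 0.593 ± 0.468 in knockout and 29.3 ± 14.2 in wild-type.

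Large domains could also stay nearly uncalled. TAD_496 on chromosome 3, which lists Adamtsl4, Ctss, Lysmd1 and Tnfaip8l2 as higher and Selenbp1 and Sema6c as lower, had 0 higher and 1 lower among 29 tested features, and its most abundant feature, MSTRG.57557, overlapped between the groups, at 268 ± 50.6 in knockout and 313 ± 24.7 in wild-type (SD, n = 6 and 5; limma, adjusted p = 0.324). TAD_410 on chromosome 2, which lists Ctsz, a lysosomal protease, as higher and Edn3, an endothelin, as lower, had 1 higher and 0 lower among 25. Its most abundant feature, MSTRG.54165, had 747 to 959 normalised counts in knockout, with a median of 869, against 527, 615, 733, 747 and 738 in wild-type, so that the lowest knockout and the highest wild-type library nearly met. It missed the threshold by little (log2 difference 0.37 ± 0.15, SE; limma, adjusted p = 0.0649), while the sum of the domain passed it (log2 difference 0.30 ± 0.11, SE; limma, adjusted p = 0.0444). Without knockout 2 its adjusted p was 0.0471.

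**Figure D3:**
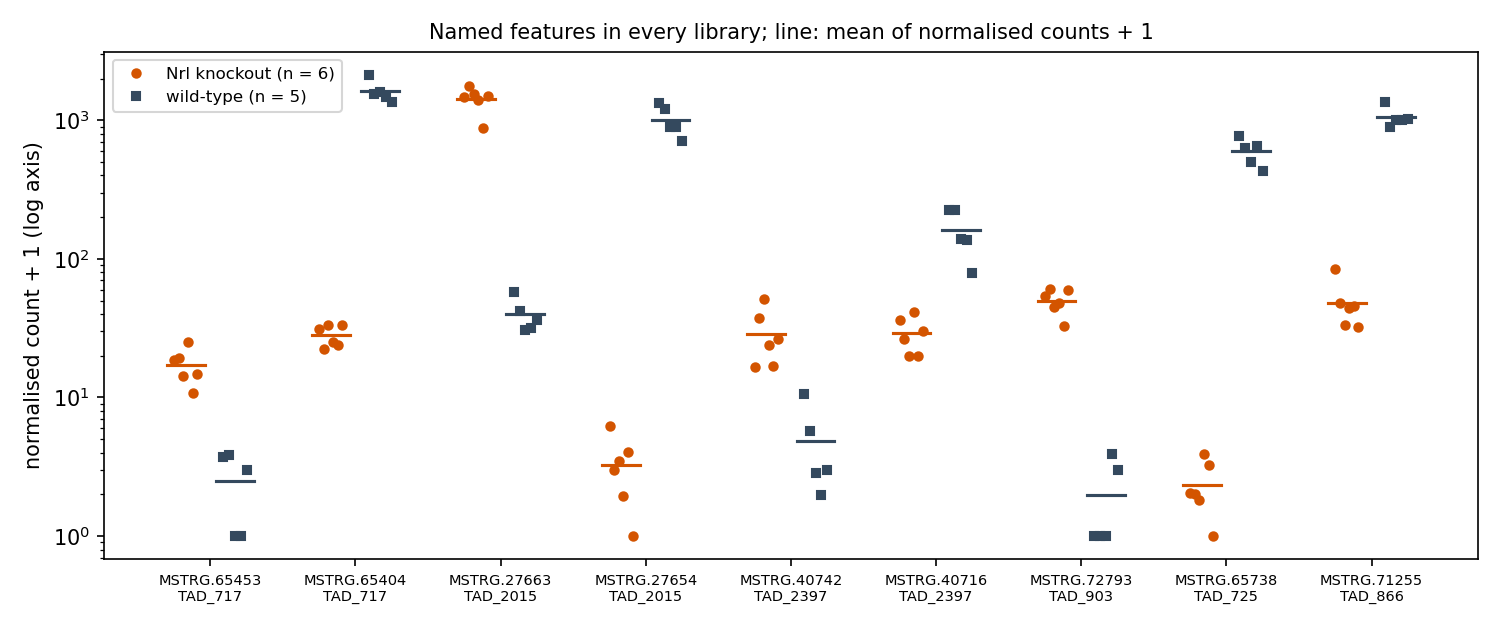
Normalised counts of 9 named features, each library a point, on a log axis after adding 1 (y axis), with Nrl knockout (n = 6, circles) left of wild-type (n = 5, squares) for each feature and bars at the means. The rises of MSTRG.65453, MSTRG.27663, MSTRG.40742 and MSTRG.72793 and the falls of the other 5 features show no overlap between the groups.

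Called features near a listed mRNA moved mostly as that mRNA did, while many features there were not called. Features that overlap a listed gene were counted first. On genes of mRNAs listed as higher, 73 of 191 tested features were higher in the knockout and 7 lower, with a median log2 difference of 0.42, and on genes of mRNAs listed as lower 11 of 222 were higher and 137 lower, with a median of -1.56. Not called were 111 on higher and 74 on lower mRNAs. Of these 413 features, 398 lie on the strand opposite to the gene and 15 on its own strand. Without knowing whether counting used strand, reads of an antisense feature and of the gene itself cannot be told apart. Counted by gene, 56 of 101 genes listed as higher carried called features that moved with the mRNA, 4 against it, 1 both ways, and 40 carried no call. For genes listed as lower the counts were 78, 5, 3 and 33 of 119.

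**Figure D4:**
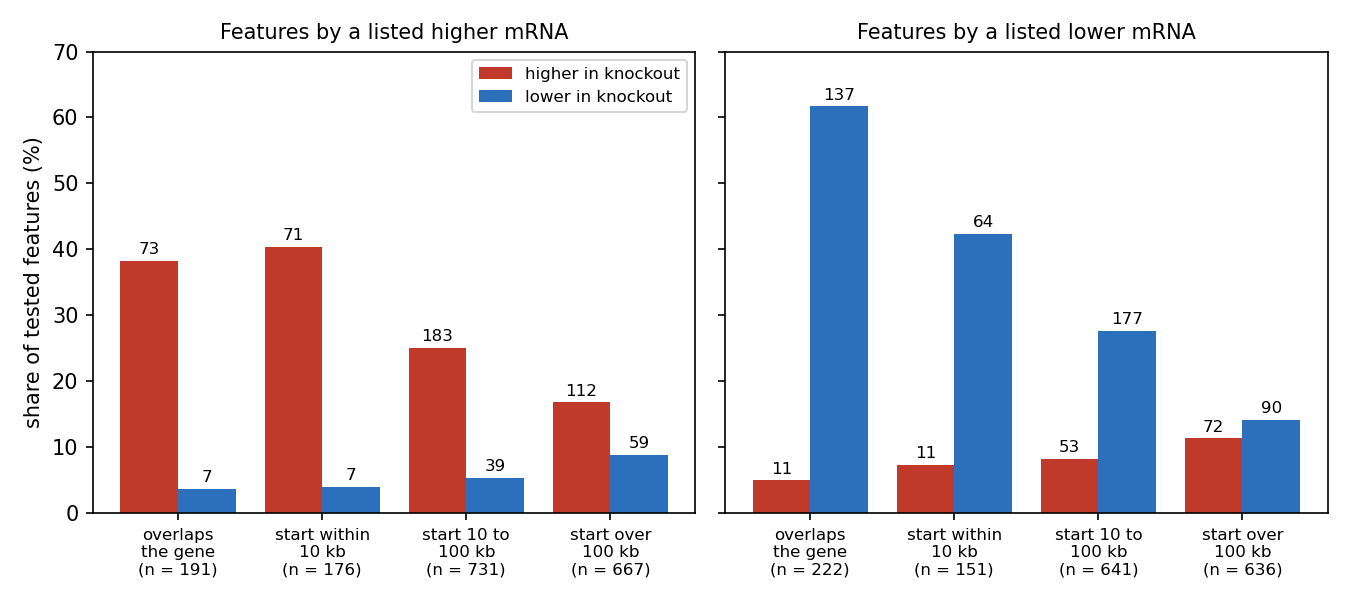
Share of tested member features called higher (red) or lower (blue) in the knockout, by position at a listed higher mRNA (left) or a listed lower mRNA (right): features that overlap the gene, and features by the distance from their middle to the nearest listed start. Numbers above bars are called features, and a feature that overlaps a gene is also counted in one of the distance bins. On lower mRNAs 137 features were lower and 11 higher, while beyond 100 kb from a lower mRNA 90 were lower and 72 higher.

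The division by side was less marked at greater distance. Among features whose nearest listed start was that of a higher mRNA, 71 were higher and 7 lower of 176 within 10 kb, 183 and 39 of 731 between 10 and 100 kb, and 112 and 59 of 667 beyond 100 kb. Where the nearest was a lower mRNA, 11 were higher and 64 lower of 151 within 10 kb, 53 and 177 of 641 between 10 and 100 kb, and 72 and 90 of 636 beyond. Of both kinds of neighbour, 697 of the 938 called members (74.3%, 95% Wilson interval 71.4% to 77.0%) moved as their nearest listed mRNA. The share was 88.2% within 10 kb, 79.6% between 10 and 100 kb and 60.7% (55.3% to 65.8%) beyond. For features on a listed gene it was 92.1% (87.9% to 94.9%), in 78 of 85 that touch an exon and 132 of 143 that lie in introns. The intervals treat features as independent, which neighbours are not.

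Away from coding genes the share differed between the sides. Among the 475 called members that overlap no protein-coding gene on either strand, 354 (74.5%) moved as the nearest listed mRNA. The share was 82.1% where the nearest was a higher mRNA, with 225 higher and 49 lower features. Near a lower mRNA it was 64.2%, with 72 higher and 129 lower. Higher calls outnumbered lower ones among the 475, so the 2 shares do not start from the same level. Of the tested members of this kind, 24.3% were higher and 5.29% lower near a higher mRNA. Near a lower mRNA, 9.73% were higher and 17.4% lower. Within 10 kb of a lower mRNA 8 of these were higher and 14 lower. Without any feature on a listed gene or within 10 kb of a listed start, 430 of 637 (67.5%) moved as the nearest listed mRNA. In 85 domains, called features stood near mRNAs of both sides. The share of higher features was larger on the side of the higher mRNAs in 53 of them, of which 23 were fully divided, with only higher features there and only lower ones on the other side. It was equal in 20 domains, 6 with all features higher and 14 with all lower, and smaller in 12, of which 3 were fully divided the wrong way round.

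The 18 called features that moved against the mRNA on whose gene they lie were looked up after their values were seen. On higher mRNAs there were 7 lowered features, 2 each at Inpp5d and Zbtb8a and 1 each at Igsf21, Srrm4 and Olfm2. The most abundant was MSTRG.64877 (chr4:140131877-140144806, plus strand), opposite to Igsf21, an adhesion protein of inhibitory synapses, and along Gm13027 and Gm13029. It had 1097 to 1853 normalised counts in knockout, with a median of 1469.6, against 6149.6, 4359.5, 5213, 4963 and 4850.0 in wild-type. All knockout libraries were below all wild-type libraries (log2 difference -1.81 ± 0.16, SE; limma, adjusted p = 3.93e-10). MSTRG.64106, opposite to Zbtb8a, was lower as well, with 38.1 ± 6.65 in knockout and 213 ± 34.5 in wild-type (SD, n = 6 and 5).

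On lower mRNAs there were 11 raised features, 2 each at Lrrc16b (Carmil3 in the annotation), Sag and Pde6b and 1 each at Pip4k2c, Lifr, Impdh1, Fam53b and Poc1a. Sag encodes rod arrestin, which ends the light signal in rods, and 3 called features lie opposite to it in TAD_85. MSTRG.3334 had 94.8 to 185 normalised counts in knockout, with a median of 156, against 54.9, 71.5, 31.6, 49.3 and 39.3 in wild-type. The groups lay apart, at a log2 difference of 1.60 ± 0.22 (SE; limma, adjusted p = 1.52e-06). MSTRG.3333 next to it overlapped between the groups, at 124 ± 33.6 in knockout and 76.0 ± 16.9 in wild-type (SD, n = 6 and 5; limma, adjusted p = 0.0157). MSTRG.3336, 26.9 kb from the start of Sag, went the other way, with 3.12 to 8.30 in knockout and a median of 5.33, against 15.1, 16.9, 13.9, 21.3 and 25.2 in wild-type. The feature at Fam53b, MSTRG.83937, had the second largest rise of the 11, with a log2 difference of 3.08 ± 0.38 (SE; limma, adjusted p = 2.61e-07).

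Neighbouring called features mostly shared a direction, and the share fell with the gap between them. Of 732 pairs of called features next to each other in a domain, 589 (80.5%) had the same direction. Within 10 kb it was 323 of 336 (96.1%), between 10 and 100 kb 160 of 210 (76.2%), and beyond 100 kb 106 of 186 (57.0%). The median gap was 119950 bp in pairs of opposite direction and 6176 bp in pairs of the same direction. By strand, the shares were 96.5% for pairs on the same strand and 95.4% for pairs on opposite strands within 10 kb, and 75% and 78% between 10 and 100 kb. Beyond 100 kb the shares were 61.8% and 51.2%.

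In domains with other lists the share also fell with the gap. Domains listing only lower mRNAs had 96.9%, 78.4% and 59.7% in the 3 gap classes, those listing only higher mRNAs 97.9%, 84.0% and 67.3%, and those listing none 96.7%, 77.6% and 56.8%. No test of these differences was made, since pairs of one domain share features. Pairs that span the border of a listed domain gave 17 of 20 (85%) between 10 and 100 kb and 178 of 341 (52.2%) beyond 100 kb, with 3 of 3 at shorter gaps. The border pairs are too few at short gaps to set against the pairs within domains.

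**Figure D5:**
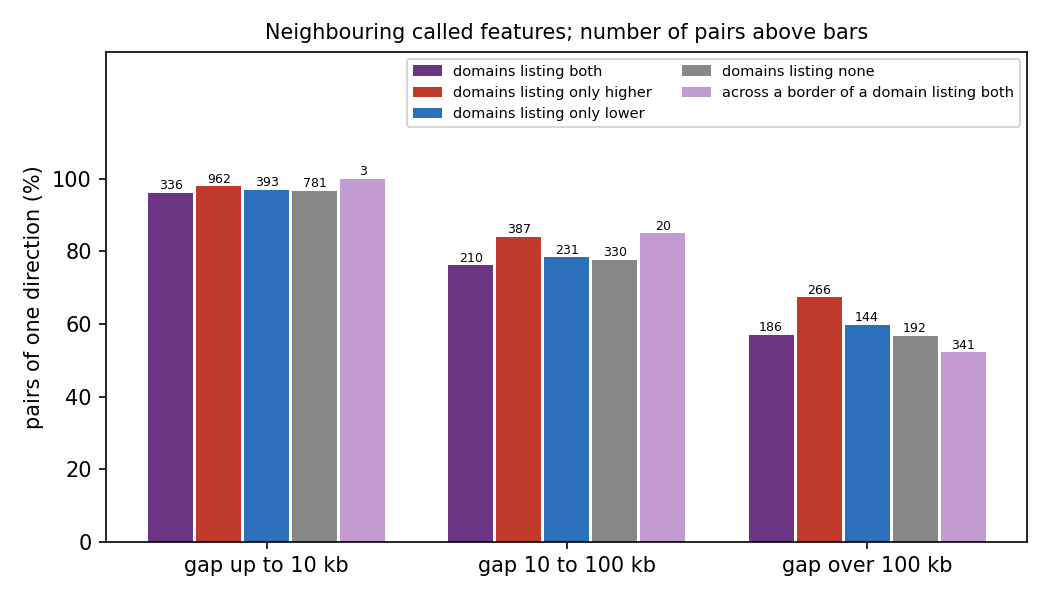
Share of neighbouring called feature pairs with the same direction (y axis, %) by the gap between them (x axis), for domains listing both higher and lower mRNAs, domains listing only higher, only lower or no mRNAs, and pairs across a border of a domain listing both; numbers above bars are pairs. In domains listing both, the share was 96.1% up to 10 kb, 76.2% from 10 to 100 kb and 57.0% beyond.

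Opposite neighbours at short range were few, 13 of the 336 pairs within 10 kb. The closest pair, in TAD_1072, was 201 bp apart on opposite strands, with MSTRG.79586 higher and MSTRG.79587 lower. Both were low, with 15.6 ± 4.07 in knockout and 7.09 ± 6.13 in wild-type for the raised one and 2.98 ± 1.86 in knockout and 7.93 ± 2.57 in wild-type for the lowered one (SD, n = 6 and 5), and both overlapped between the groups. On one strand, MSTRG.95572 and MSTRG.95573 in TAD_2571 on chromosome X lay 1085 bp apart. MSTRG.95572 had 10.8 to 33.6 in knockout, with a median of 20.9, against 8.23, 7.53, 9.28, 10.6 and 6.05 in wild-type, and its groups just missed each other. MSTRG.95573 was lower, at 90.8 ± 11.1 in knockout and 146 ± 35.7 in wild-type, with overlap (limma, adjusted p = 0.00264 and 0.00819 for the pair).

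The balance of the listed mRNAs and that of the called features ran in the same direction. In 130 domains with at least 3 called features, the share of higher mRNAs and the share of higher features had a Spearman correlation of 0.43, a description across domains that share the 11 libraries. The 57 domains listing more higher mRNAs held 263 higher and 127 lower features (67.4% higher), and 34 of them had more higher features, 8 equally many and 15 more lower ones. The 49 domains with equal lists held 141 and 132 (51.6% higher). The 24 domains listing more lower mRNAs held 41 and 117 (25.9% higher), and 4 of them had more higher and 20 more lower features. The median share of higher features per domain was 66.7%, 50.0% and 5.0% in the 3 kinds.

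The domains of rod genes in the lower lists held raised as well as lowered features when counted over all of them. Of the 33 genes of a rod photoreceptor list, 12 are listed as lower, among them Nrl, Gnat1, Gnb1, Pde6b and Sag, and none as higher. Their 12 domains had 30 higher and 40 lower features among 153 tested (19.6% and 26.1%, against 15.6% and 12.6% of all tested features). Of the 26 tested features on the genes themselves, 4 were higher and 18 lower.

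The targeted gene lies in TAD_2031 on chromosome 14, which lists Nrl and Lrrc16b as lower and Ipo4, Irf9 and Tssk4 as higher and had 6 higher and 2 lower features among 12. The feature opposite to Nrl itself, MSTRG.28375, had 0 to 0.758 normalised counts in knockout, with a median of 0, against 48.0, 55.5, 39, 34.8 and 33.3 in wild-type. MSTRG.28377, 1.35 kb from the start of Nrl, was lower too, with 1.95 to 9.60 and a median of 6.26 in knockout, against 134, 183, 69.6, 131 and 67.6 in wild-type. Both separated the groups fully, with log2 differences of -5.27 ± 0.37 and -4.11 ± 0.34 (SE; limma, adjusted p = 7.43e-12 and 1.57e-10).

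Only 2.03 kb beyond MSTRG.28377, MSTRG.28378 (chr14:55528827-55532520, plus strand, opposite to the non-coding gene Gm10876) was the strongest rise of the named features. It had 339.7 to 452 normalised counts in knockout, with a median of 421, against 5.49, 0.941, 1.86, 2.90 and 2.02 in wild-type. The lowest knockout library was far above the highest wild-type one (log2 difference 6.92 ± 0.25, SE; limma, adjusted p = 1.4e-17). The sources used here do not say whether the knockout allele reaches into this stretch. The sum of the domain averaged 704 ± 73.6 in knockout and 378 ± 59.8 in wild-type (SD, n = 6 and 5; log2 difference 0.90 ± 0.12, SE; limma, adjusted p = 1.03e-05).

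The domain of Gnat1, the rod transducin alpha subunit, is TAD_1436 on chromosome 9, with the axon guidance genes Sema3f listed as lower and Sema3b as higher. It had 9 higher and 2 lower features among 15 tested over 98.4 kb. The lowered ones lie opposite to Gnat1 and Sema3f. MSTRG.94151 had 0 to 2.02 normalised counts in knockout, with a median of 0.379, against 224, 159, 165, 139 and 135 in wild-type (log2 difference -6.78 ± 0.32, SE; limma, adjusted p = 4.78e-15). Beyond a gap of 34.0 kb followed 7 raised features, with 2 more at the other end of the domain. MSTRG.94155 was the most abundant of those that overlap no gene. It had 398 to 839 in knockout, with a median of 631, against 144, 91.3, 125, 98.7 and 114 in wild-type, with no overlap (log2 difference 2.48 ± 0.19, SE; limma, adjusted p = 3.86e-11). The sum followed the raised features, at 2689 ± 469.5 in knockout and 1605 ± 335 in wild-type (SD, n = 6 and 5; log2 difference 0.75).

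TAD_828 on chromosome 5 lists Pde6b, the rod phosphodiesterase beta subunit, as lower and Mfsd7a as higher, and had 7 higher and 1 lower features among 14. MSTRG.69636, 14.7 kb from the start of Pde6b and along Gm10419, had 1564 to 2422 normalised counts in knockout, with a median of 2153, against 635, 542, 567, 515 and 536 in wild-type. The groups lay apart (log2 difference 1.86 ± 0.15, SE; limma, adjusted p = 1.7e-10). MSTRG.69644, in an intron of Pde6b on the opposite strand, had 4.04 to 14.6 in knockout and a median of 9.23, against 0, 0, 0.928, 0 and 0 in wild-type, where the third library holds a single read. The 7 raised features all have Pde6b as the nearest listed mRNA and moved against it.

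Around Gnb1, the rod transducin beta subunit, TAD_725 on chromosome 4 had 2 higher and 5 lower features among 24. It lists Gnb1 and Ssu72 as lower and Fam132a and Isg15, an interferon-induced modifier, as higher. MSTRG.65738, in an intron of Gnb1 on the opposite strand, had 0 to 2.88 normalised counts in knockout, with a median of 1.02, against 769, 626, 499, 657 and 433 in wild-type. The knockout values were at or under the level of 3 reads, at a log2 difference of -8.10 ± 0.29 (SE; limma, adjusted p = 1.63e-17).

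Cone genes in the higher lists were fewer. Of 26 genes of a cone photoreceptor list, Opn1sw, Ccdc136, Otop3, En2 and Slc24a2 are listed as higher, in 4 domains. Those domains held 17 higher and 5 lower features among 49 tested (34.7% and 10.2%, against 15.6% and 12.6% of all tested features). Of the 17 higher ones, 11 lie in TAD_903. The 4 tested features on these genes were higher, 2 each at Opn1sw and Slc24a2. TAD_903 on chromosome 6 lists Opn1sw, the short-wavelength cone opsin gene, among 7 higher mRNAs, and Impdh1, an enzyme of guanine nucleotide synthesis, as lower. It had 11 higher and 2 lower features among 22, with a single change of direction at a gap of 33.4 kb. MSTRG.72794, opposite to Opn1sw, had 372 to 834 normalised counts in knockout, with a median of 589, against 37.0, 18.8, 26.9, 25.1 and 16.1 in wild-type. The groups lay apart (log2 difference 4.54 ± 0.22, SE; limma, adjusted p = 6.88e-15), as they did for MSTRG.72793 on the same gene, with 49.0 ± 10.4 in knockout and 0.984 ± 1.38 in wild-type (SD, n = 6 and 5). The 2 lowered features lie at the far end of the domain. MSTRG.72871, 416 kb from Ahcyl2, had 259 to 363 in knockout, with a median of 333, against 997, 783, 894, 744 and 838 in wild-type.

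The other cone gene domains had 7 to 11 tested features. In TAD_643 with Slc24a2, the cone sodium-calcium-potassium exchanger, 3 of 9 features were higher and 0 lower, and MSTRG.62331 in its intron averaged 15.7 ± 8.07 in knockout and 2.61 ± 1.95 in wild-type (SD, n = 6 and 5; log2 difference 2.26 ± 0.39, SE; limma, adjusted p = 4.23e-05). In TAD_748 with the homeobox gene En2, listed as higher, and Insig1, a brake on sterol synthesis, listed as lower, 1 of 7 was higher and 0 lower. That feature, MSTRG.66805, had 8.08 to 14.6 in knockout, with a median of 10.3, against 1.37, 0, 0, 0 and 2.02 in wild-type. In TAD_1744 with the proton channel gene Otop3, 2 of 11 were higher and 3 lower. Its largest change, MSTRG.17797, overlapped between the groups, with 2.93 to 10.6 in knockout and a median of 8.60, against 6.86, 0.941, 1.86, 0 and 3.03 in wild-type. The log2 difference of 1.53 ± 0.48 (SE; limma, adjusted p = 0.0177) was 1.15 without wild-type 4, where it was no longer called (adjusted p = 0.0714).

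Other cell type lists had between 0 and 7 genes among the listed mRNAs. Of 14 glial and stress response genes, 7 are listed as higher (Fgf2, Bcl3, C4b, Osmr, Lcn2, Lif and Gfap), and their domains had 15 higher and 14 lower features among 99 tested (15.2% and 14.1%), close to the 15.6% and 12.6% of all tested features. On the genes themselves 3 features were tested and 3 were higher, 2 of them opposite to Fgf2, a growth factor that protects photoreceptors, and the third on Bcl3, a cofactor of NF-kappa-B. MSTRG.55708 at Fgf2 averaged 36.3 ± 8.17 in knockout and 6.71 ± 2.28 in wild-type (SD, n = 6 and 5; limma, adjusted p = 1.79e-07). Of 10 microglia and immune genes, Cx3cr1, Aif1, P2ry12 and Cd68 are listed as higher, with 2 higher and 2 lower features among 14 in their domains. The Müller glia gene Apoe stands in a domain with 5 higher and 0 lower features of 30, and the ganglion cell gene Atoh7 in one with 4 and 2 of 18. The horizontal cell list gave the single lower gene Ndrg1, in a domain with 0 higher and 4 lower features of 5. From the photoreceptor transcription factor list, Nrl and Esrrb are listed as lower, with 6 higher and 8 lower features of 22 in their domains and 0 and 7 of 8 on the genes. The bipolar cell, amacrine cell, retinal pigment epithelium, vascular and pericyte, erythrocyte and lens lists have 0 genes among the listed mRNAs. The part of changed cell numbers in these counts was not tested.

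By place relative to any annotated gene, listed or not, intergenic members were called higher more often than lower, as were intergenic features of the whole table. Members antisense to a coding gene were lower more often than higher, which was less marked in the whole table. Of 1230 tested members antisense to a protein-coding gene, 15.9% were higher and 20.7% lower, against 16.1% and 16.6% of such features in the whole table. Of 1346 intergenic members, 18.4% were higher and 10.1% lower, against 16.3% and 10.9%. Of 213 members along a non-coding gene, 12.2% were higher and 9.39% lower, against 12.2% and 10.99% in the whole table. Of 108 antisense to a non-coding gene, 22.2% were higher and 20.4% lower, against 18.3% and 14.5%. Of 105 on the strand of a coding gene, 9.52% were higher and 3.81% lower, against 6.38% and 3.86%. No test was made of these shares.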

How the data were processed

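The members, gene lists and named domains were chosen with earlier results of these data known. The deposited table gives, per library, a signal that is a read count normalised by the authors with DESeq2 size factors on build mm10, as the table's name and its header give it. Per the submitters' processing notes, the tools were TopHat2 2.0.10, Cufflinks 2.2.1 and Cuffdiff and the builds mm10 and mm9, without their roles. The sources used here name neither the assembler of the MSTRG features nor the use of strand in counting. Also deposited were a log2 fold change, a score, a p-value and an adjusted p-value from a comparison by the authors, as the file headers name them. The table has 36180 lines; 83 features on 2 lines were left out of the domains, 16 of which touch the domains described. Starts were raised by 1 to count from 1.

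The main test was limma 3.58.1 (trend, robust) under R 4.3.3, two-sided, with genotype as the only term, on values transformed as log2(normalised count + 1). It covered the 21395 features whose mean over the 11 libraries reached 5, with Benjamini-Hochberg adjustment over all of them, and features with an adjusted p below 0.05 were called. On this scale the change of a feature with few counts is understated. Domain sums over all member features were fitted alike. The scripts were tested on simulated data with known answers. Of all values, 100% were whole multiples of 1 read (tolerance 0.001), so edgeR 4.0.16 and DESeq2 1.42.0 were run as alternatives on the reads of 9 libraries, 5 knockout and 4 wild-type; knockout 2 and wild-type 5 were left out by a rule on libraries where 1 read is worth about 1 normalised count, and limma on these 9 was added after seeing the data.

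Of the 849 listed mRNAs, 846 were placed on GENCODE M21, 18 of them by a RefSeq synonym, and 3 were not placed. Distance ran from a feature's middle to the nearest listed start of its domain. Named were the 4 domains with most calls in both directions, the 3 with most all higher and the 3 with most all lower. Named too were the 2 largest with the smallest called share and up to 4 rod and 4 cone gene domains. Up to 2 domains whose calls all had the direction of the mRNA that stands alone in its list were added. The rod and cone gene domains gave their feature of largest change. The 2 with the smallest called share gave that of highest mean, and the others their largest rise and fall. Features named besides these were chosen after their values were seen.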

Additional observations from a re-analysis of the deposited data

Results flagged for a closer look

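Among the named features and domain sums, 11 of 92 groups of libraries held a library far from the others of its group. Chance gives about 1 in 20 for independent groups, which these are not, since they share the 11 libraries. Knockout 1 was far above the other knockout libraries for MSTRG.62331, at 31.2 normalised counts, and for MSTRG.71255, at 83.2. Wild-type 1 was far above the other wild-type libraries for MSTRG.71255, at 1352. It was also the highest for the domain sums of TAD_1744 (543), TAD_717 (8518), TAD_748 (100.1) and TAD_903 (2028). Wild-type 1 held the fewest reads of the 11 libraries, 3238184, and each read counted as 1.37 normalised counts. In the other wild-type libraries a read counted as 0.928 to 1.01. Whether this bears on its high values was not tested. Wild-type 3 had 0.928 for MSTRG.69644 and wild-type 5 had 1.01 for MSTRG.92621, each a single read where the other wild-type libraries had 0. Knockout 5 was the lowest for the sum of TAD_2015, at 1323, and wild-type 2 the lowest for that of TAD_828, at 1317.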

How the results depend on the processing

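With a minimum mean of 20 in place of 5, 259 members were higher, 281 lower and 54 domains held both directions; fewer features were tested. The same-direction share of adjacent pairs was 67.2% over pairs more than 10 kb apart, since close pairs leave the count, and 77.0% with a replicate block; the cause of that shift was not tested. Same-numbered libraries deviated together in 3 of 5 numbers, 2 of 5 matched best with their own number, and the labels give no pairing. Leaving out each library in turn gave 461 to 538 higher and 395 to 446 lower members, 84 to 92 domains with both directions, 50 to 67 with only higher and 53 to 63 with only lower calls, 43 to 57 higher and 64 to 77 lower sums, 73.7% to 75.5% moving as the nearest mRNA and adjacent shares of 78.1% to 80.0%. edgeR and DESeq2 gave 463 and 412 higher and 450 and 442 lower members. The counts ranged more widely under other settings. The replicate block gave 556 higher and 488 lower members and 107 domains with both directions. Without a minimum mean, 104 domains held both directions. Limma on the 9 libraries gave 441 higher and 453 lower members. It called 39 higher and 78 lower sums, against 54 and 69 in the main test. Of 490 refits of the 25 named features, 485 kept direction and side of the threshold and none reversed; MSTRG.54165 passed it in 4 and MSTRG.17797 missed it in 1. Depth limits the low features, as a wild-type library with 0 reads allows up to 4.11 normalised counts.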

Other observations

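Other rod gene domains differed in their calls. Around Rom1, a structural protein of rod outer segment discs, 0 of 14 tested features were higher and 6 lower. Around Pde6g, the inhibitory subunit of rod phosphodiesterase, 0 of 18 were higher and 4 lower, and around Abca4, a retinoid transporter, 0 of 4 were higher and 3 lower. The domain of Esrrb, a nuclear receptor, had 0 higher and 6 lower among 10, and 7 of the 10 lie on Esrrb itself, where 6 were lower. Around Gngt1, the rod transducin gamma subunit, 2 of 15 were higher and 2 lower, and the 7 features around Nxnl1, the gene of a rod-derived survival factor, had no call.

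In the glial gene domains calls also went both ways. Around the cytokine gene Lif, 4 of 35 tested features were higher and 7 lower, and around Lcn2, an iron-binding acute phase protein, 3 of 15 were higher and 3 lower. The domain of Gfap, the intermediate filament of reactive glia, had 0 higher and 1 lower among 8. These domains list the gene as higher, and the features on Fgf2 and Bcl3 were the tested ones that overlap a gene of this list.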
